A study of Mus musculus with 7 samples.

Results

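The mitochondrial ribosomal protein genes are the nuclear genes whose symbols begin with Mrpl, for the large subunit of the mitochondrial ribosome, or Mrps, for the small one, followed by a number. All symbols of that form that occur in both deposited gene tables were taken, which gave 74 members, 45 of the large and 29 of the small subunit, of 20772 symbols in both tables. *Mrpl2*, *Mrpl33* and *Mrpl53* are found in the table of the sheared libraries only and are not counted among the members. The 7 RNA-Seq libraries were made from tissue of area CA2 of the hippocampus, collected by laser capture microdissection (LCM) from male Amigo2-EGFP mice (strain label Amigo2-GFP C57BL/6, age 6 weeks), which carry EGFP under control of the *Amigo2* gene, a marker of CA2 neurons. No animal received an experimental treatment, so every contrast is one of how the RNA and the libraries were prepared. Of these, 4 unsheared libraries crossed the library kit (NuGEN Ovation or Clontech SMARTer) with the RNA extraction kit (QIAGEN RNeasy Micro or PicoPure, the PicoPure RNA being the less intact), with 1 library for each combination and no animal named in the labels. The other 3 were NuGEN libraries of QIAGEN RNA with shearing of the cDNA, amplified with 16, 18 or 20 PCR cycles, each from another mouse, so that mouse and number of cycles changed together. Both kits prime with random hexamers, and NuGEN also with poly-dT. Clontech removes ribosomal RNA before cDNA synthesis and NuGEN before library amplification.

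The mitochondrial ribosome translates the few proteins that are encoded in mitochondrial DNA, all of them subunits of the oxidative phosphorylation complexes of the inner membrane. Its ribosomal RNAs come from mitochondrial DNA, whereas all of its proteins are encoded in the nucleus, made in the cytosol and imported. In neurons, which depend on oxidative phosphorylation, these genes are expressed in every cell, as housekeeping genes are. The symbols do not follow the structure in every case: in human ribosomes the products of *Mrps18a* and *Mrps30* sit in the large subunit, and the product of *Mrps36* is a subunit of the α-ketoglutarate dehydrogenase complex.

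The values are normalized counts, that is reads assigned to a gene divided by a size factor of its library. Reads recovered from them numbered 4548002 to 10417443 in the unsheared and 33239387 to 39256039 in the sheared libraries, and those in ribosomal RNA and mitochondrially encoded genes took 1.69 to 5.98%. All 9 tested markers of CA2 pyramidal neurons were above 0 in every unsheared library (summed level 12347 to 15159 normalized counts). The labels give CA2 for every library, whereas the study's methods describe PicoPure extraction of tissue from neighboring CA1 in its comparison of extraction kits. All 8 CA1 markers were above 0 in every library. In the unsheared libraries they had a summed level of 1591 and 1480 normalized counts in the PicoPure libraries (NuGEN, Clontech) and 1073 and 784 in the QIAGEN libraries. The tissue also held glia: the 10 oligodendrocyte markers summed to 3114 to 7053 normalized counts in the unsheared and to 27269 to 37005 in the sheared libraries, whose table was scaled separately.

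All 74 members were detected in all 7 libraries. The most sparsely covered member had 17 reads in the Clontech QIAGEN library (*Mrpl54*) and 18 in the NuGEN PicoPure library (*Mrps14*), and the median member had 95 reads in the NuGEN QIAGEN and 900 in the sheared 18-cycle library. Of the reads outside ribosomal RNA and mitochondrially encoded genes, the members took 0.193% with NuGEN and QIAGEN RNA (Wilson interval at 95%: 0.189 to 0.197%) and 0.161% with NuGEN and PicoPure RNA (0.158 to 0.165%). With Clontech the share was 0.156% for QIAGEN RNA (0.154 to 0.159%) and 0.130% for PicoPure RNA (0.128 to 0.132%). The share was thus higher with NuGEN than with Clontech for each RNA and lower with PicoPure than with QIAGEN RNA for each kit, although the NuGEN PicoPure and Clontech QIAGEN intervals overlapped. The 3 sheared libraries had 0.231% (0.230 to 0.233%), 0.226% (0.224 to 0.227%) and 0.226% (0.225 to 0.228%) at 16, 18 and 20 cycles. The intervals cover the counting error of reads alone. PCR copies of 1 molecule are counted as separate reads, so the intervals may be too narrow for the counting error of molecules. In such bulk tissue, fewer cells of a type and less RNA per cell cannot be told apart.

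Levels of different genes were compared as normalized counts per kb of exon, with the union of all annotated exons as the length. In the sheared libraries *Mrpl12* had the highest level, with 2220, 1991 and 1827 normalized counts per kb at 16, 18 and 20 cycles. Its product is the L7/L12 protein of the ribosomal stalk, which is present in several copies and recruits translation factors, and it also binds mitochondrial RNA polymerase. *Mrps33*, of the small subunit, followed with 1483, 1542 and 1633 normalized counts per kb, below *Mrpl12* in every sheared library. *Mrpl41* had 1205, 1352 and 1249 normalized counts per kb and *Mrpl28* had 1115, 1313 and 1364, so these 2 members of the large subunit did not differ beyond their spread. The next in order that were named are *Mrpl20*, with 967 to 1249, *Mrps21*, with 875 to 1086, *Mrps36*, with 765 to 972, and *Mrps12*, which encodes the S12 protein of the decoding site, with 837 to 899 normalized counts per kb. The 2 lowest of the small subunit were *Mrps35* (54.4 to 61.3) and *Mrps10* (78.3 to 95.1), and the 2 lowest of the large subunit were *Mrpl13* (117 to 163) and *Mrpl47* (104 to 140 normalized counts per kb). The place of some depends on the length used: per kb of the longest transcript *Mrpl12* was at rank 4 in the sheared libraries, below *Mrpl52*, *Mrpl20* and *Mrpl42*. With that length *Mrps10* moved from rank 73 to rank 38 of 74 and *Mrpl13*, whose union of exons is 7936 bases and longest transcript 1223, from 70 to 28, while *Mrps35* stayed at 74 and *Mrpl47* was at 72.

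The order was not the same with the Clontech kit. *Mrps24*, a member of the small subunit singled out after its values were seen, was the highest per kb in both Clontech libraries, at 395 with QIAGEN and 346 with PicoPure RNA, and had 334 and 306 normalized counts per kb in the unsheared NuGEN libraries. By its mean per kb it was at rank 1 in the unsheared but at rank 23 in the sheared NuGEN libraries, so its place did not follow the kit alone. It has 11 numbered exons in the deposited counts but 4 merged exons in GENCODE vM21, whose length was used. *Mrpl12* had 107 and 90.4 with Clontech and 522 and 308 with NuGEN, so that *Mrpl12* was above *Mrps24* with NuGEN and QIAGEN RNA, close to it with NuGEN and PicoPure RNA, and below it with Clontech. Across the 74 members, which share their exon lengths in these values, Spearman's rho of the levels per kb was 0.90 between the NuGEN unsheared libraries, 0.82 between the Clontech libraries and 0.48 to 0.63 between kits. The sheared libraries had a rho of 0.96 to 0.97 with each other, 0.85 to 0.91 with the unsheared NuGEN libraries and 0.55 to 0.64 with the Clontech libraries.

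Large and small subunit members had similar levels in each library. The median level of the large subunit over that of the small one was 1.06 and 0.99 in the NuGEN libraries (QIAGEN, PicoPure), 1.12 and 0.98 in the Clontech libraries and 1.15, 1.15 and 0.96 in the sheared libraries. Within a subunit the spread was far wider than this: in the NuGEN QIAGEN library the middle 50% of members lay between 33.1 and 126 normalized counts per kb for the large and between 28.2 and 106 for the small subunit. Per kb of the longest transcript the ratio was 0.89 and 0.87 with NuGEN and 1.13 and 1.15 with Clontech, so the order of the subunits changed with the length in the NuGEN QIAGEN and Clontech PicoPure libraries and stayed the same in the NuGEN PicoPure and Clontech QIAGEN libraries.

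**Figure D1:**
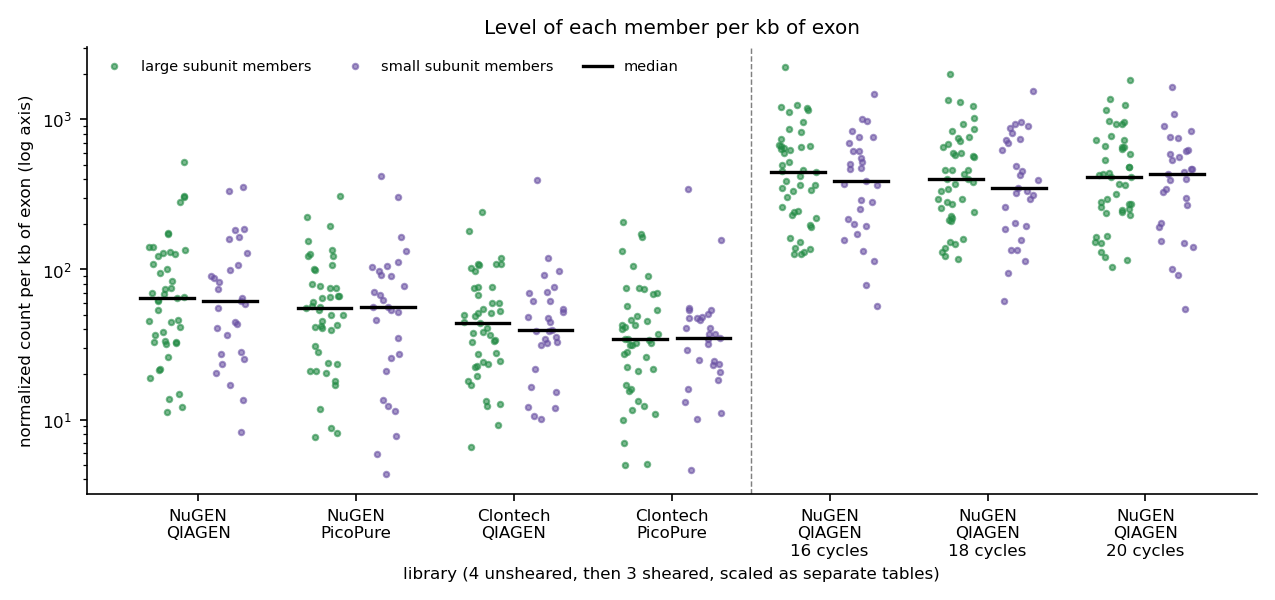
Normalized counts per kb of exon (log axis) of each member in the 4 unsheared and 3 sheared libraries, 1 point per member, by subunit, with the median as a bar. The medians of the large and small subunit lie close together in every library, and the levels of the unsheared and the sheared libraries come from tables that were scaled separately.

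In the median, members differed more between the kits than between the RNA samples of the same kit. Between the 2 NuGEN unsheared libraries the median ratio of the higher to the lower normalized count was 1.37, and 11 of 74 members reached a ratio of 2, and between the Clontech libraries it was 1.44 and 8 members did. Between the kits the median ratio was 1.61 for QIAGEN and 1.78 for PicoPure RNA, and 29 members reached 2 in each. Among the 3 sheared libraries, each deeper than any unsheared one, no member reached it: the median ratio of the highest to the lowest was 1.23 and the largest was 1.54, for *Mrpl57*. The study reported for its genes at large that libraries of the same kit correlated better than libraries of the same RNA. These ratios over all genes are not given here, so they do not set the members apart.

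The comparison of library kits asks how much the measured level of a gene depends on the chemistry of the library. With NuGEN, 19 of the 74 members were higher than with Clontech, 10 of the large and 9 of the small subunit, and 3 were lower, all of the small subunit, while 52 did not pass the test (limma on log2(normalized count + 1) with the RNA sample as a second term, Benjamini-Hochberg adjusted p under 0.05). Of the 13044 genes tested, 10.8% were higher and 10.5% lower, 21.3% in either direction. The median log2 difference, NuGEN minus Clontech, was 0.28 over the members (0.22 for the large and 0.49 for the small subunit) and -0.04 over all genes. In 34 members (45.9%) both NuGEN libraries were above both Clontech libraries, a pattern that 27.0% of all genes showed, and in 8 members (10.8%) both were below, against 27.9% of all genes. Within each RNA sample taken alone, 38 members were higher with NuGEN in both (33.6% of all genes) and 13 were lower in both (36.1% of all genes). Per the study's methods, the libraries compared across kits had the same number of PCR cycles. With 1 library per combination, the fit of each gene has 1 residual degree of freedom. The spread behind its standard error and p-value therefore came mostly from other genes of like level, which entered with 36.24 degrees of freedom. The same holds for the comparison of RNA samples below. As both kits used the same RNA, that spread may be technical, and the p-values say nothing of differences between mice.

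**Figure D2:**
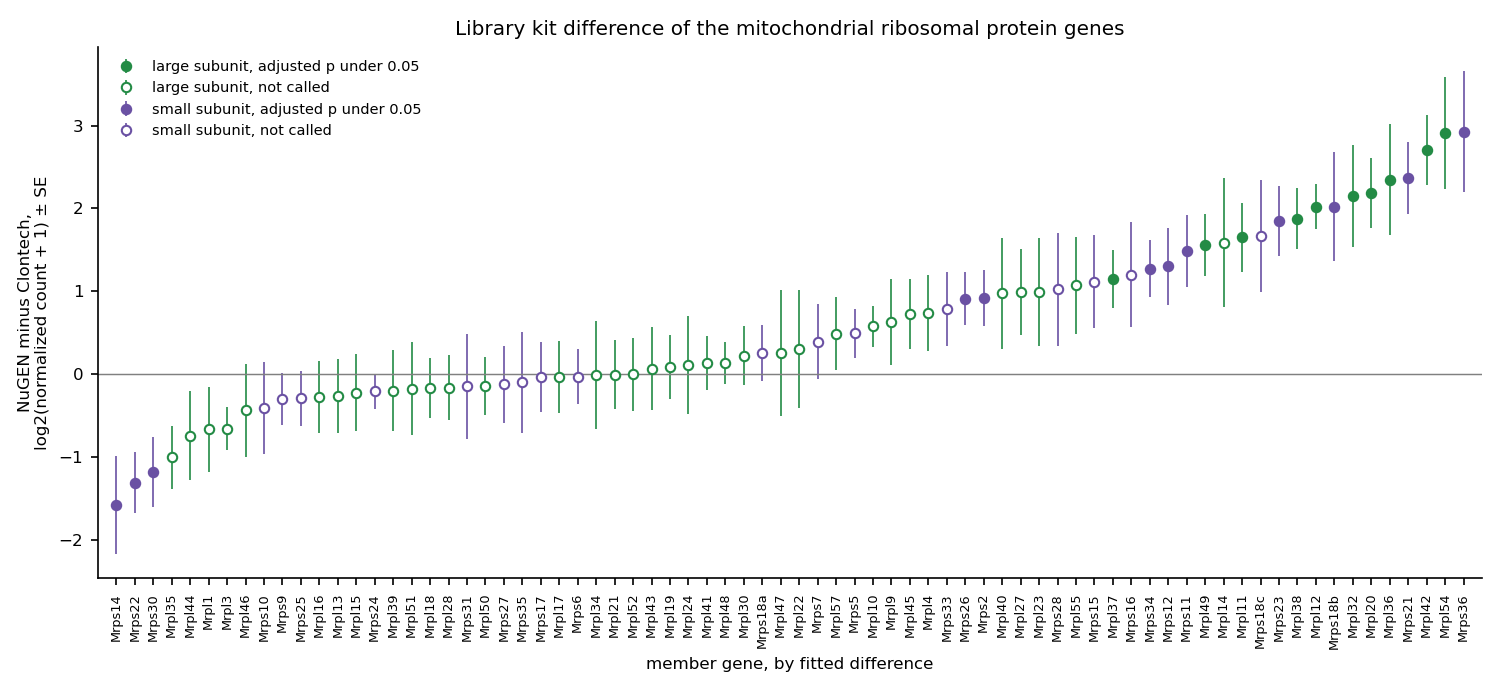
Fitted difference between NuGEN and Clontech libraries in log2(normalized count + 1), with its standard error, of all 74 members in order of the difference, filled where the adjusted p was under 0.05. The 19 filled points on the right run from 0.91 to 2.93 and the 3 on the left from -1.58 to -1.18.

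*Mrps36*, whose product belongs to the α-ketoglutarate dehydrogenase complex, had 163 and 89.9 normalized counts in the NuGEN libraries (QIAGEN, PicoPure) against 13.5 and 16.8 in the Clontech libraries, which rested on 21 and 27 reads. The groups were far apart and the log2 difference was 2.93 (SE 0.73, limma adjusted p = 0.0026), a 7.61-fold change. *Mrpl54*, without a bacterial counterpart, had 233 and 104 normalized counts against 10.9 and 35.4 (log2 difference 2.91, SE 0.68, limma adjusted p = 0.0014). *Mrpl42*, likewise specific to mitochondria, had 368 and 275 against 46.9 and 49.0 (2.70, SE 0.43, limma adjusted p = 6.2e-06), and here the libraries of one kit lay close together. The products of *Mrps21*, *Mrpl36* and *Mrpl20* are counterparts of the bacterial ribosomal proteins S21, L36 and L20. *Mrps21* had 263 and 309 normalized counts against 72.0 and 41.0, *Mrpl36* had 157 and 87.1 against 26.4 and 18.6, and *Mrpl20* had 290 and 257 against 56.6 and 62.1. Their log2 differences were 2.37, 2.35 and 2.18.

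Among the members whose place in the ribosome is particular, the stalk gene *Mrpl12* had 800 and 472 normalized counts in the NuGEN libraries against 164 and 138 for Clontech. Its log2 difference of 2.02 had the smallest standard error of the called members that rose (0.27, limma adjusted p = 2.9e-07). The paralogs *Mrps18a*, *Mrps18b* and *Mrps18c* differed in what they showed. *Mrps18b* rose with NuGEN (128 and 96.9 against 21.2 and 33.5 normalized counts, log2 difference 2.02, limma adjusted p = 0.022), *Mrps18c* did not pass the test (80.0 and 105 against 35.4 and 22.3, log2 difference 1.67, SE 0.68), and *Mrps18a* had nearly the same value in all 4 libraries (205, 206, 175 and 170, log2 difference 0.25, SE 0.34). The differences between the 3 paralogs were not tested.

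The other members that were higher with NuGEN had log2 differences of 0.91 to 2.15. Of the large subunit these were *Mrpl32*, whose product is cleaved by the m-AAA protease before it joins the ribosome, *Mrpl38*, *Mrpl11*, which encodes a protein at the base of the stalk, *Mrpl49* and *Mrpl37*. Of the small subunit they were *Mrps23*, *Mrps11*, *Mrps12*, *Mrps34*, *Mrps2* and *Mrps26*. In each of these 11 both NuGEN libraries were above both Clontech libraries, which their being called on the same libraries favors. *Mrps12*, for example, had 172 and 170 normalized counts in the NuGEN libraries against 95.1 and 49.7 in the others.

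The 3 members that fell with NuGEN were *Mrps22*, *Mrps30* and *Mrps14*. *Mrps22*, in which human mutations cause mitochondrial disease, had 102 normalized counts in each NuGEN library against 303 and 215 for Clontech (log2 difference -1.31, SE 0.37, limma adjusted p = 0.0084). *Mrps30*, whose product sits in the large subunit, had 89.96 and 75.8 against 217 and 164 (-1.18, SE 0.42, limma adjusted p = 0.042). *Mrps14* had 66.6 and 25.3 against 102 and 154 (-1.58, SE 0.59), and its limma adjusted p of 0.04998 was just under the threshold. Both NuGEN libraries were below both Clontech libraries in each of the 3, which their being called on the same libraries favors.

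**Figure D3:**
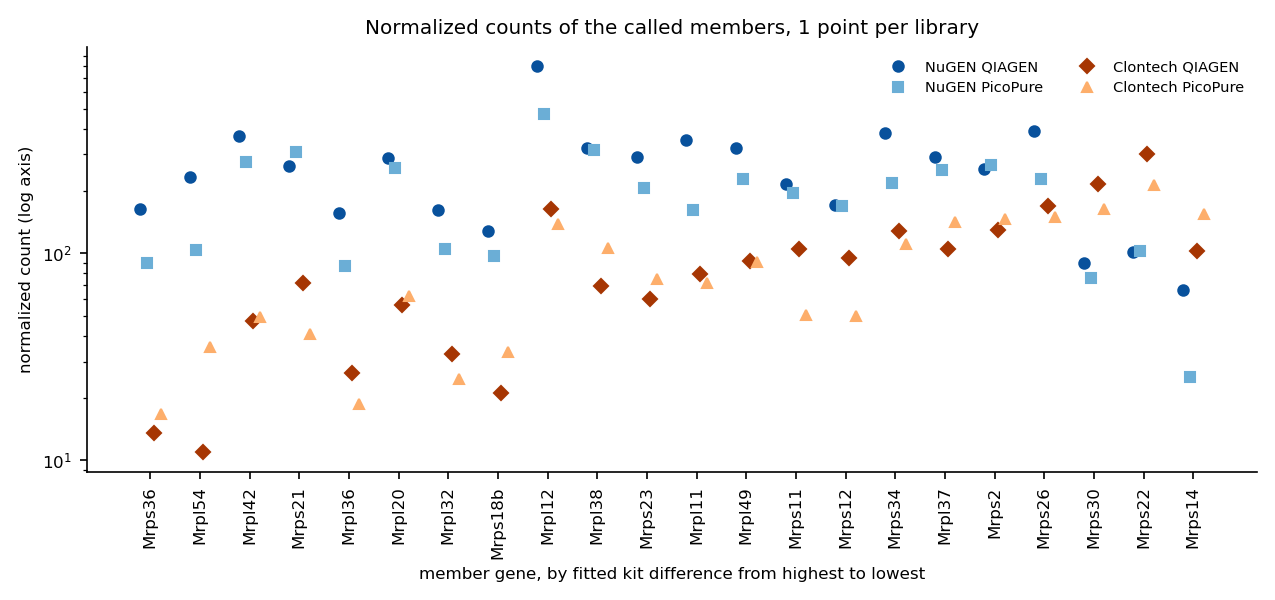
Normalized counts (log axis) of the 22 members called in the kit comparison in each of the 4 unsheared libraries, 1 point per library, in order of the fitted difference. In every member the libraries of one kit lie on the same side of those of the other, a pattern favored by the choice of called members. *Mrpl12* is the highest in both NuGEN libraries at 800 and 472.

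In 11 of the 22 members the call held in all 11 fits of the 4 libraries with both terms (the fit above and those with other tools, scalings, pseudocounts, filters, a length and GC correction and exon counts). They were *Mrpl11*, *Mrpl12*, *Mrpl20*, *Mrpl32*, *Mrpl38*, *Mrpl42*, *Mrpl49*, *Mrps21*, *Mrps22*, *Mrps23* and *Mrps36*. When any 1 of the 4 libraries was left out, which also required leaving the RNA term out, 0 members were called by limma, and the sign of none of the 22 changed.

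Members with a larger kit difference tended to be short and rich in GC. Across the 74 members Spearman's rho of the difference was -0.41 with the length of the exons and 0.35 with GC content, and across 12572 genes with annotation it was -0.30 and 0.29. The median longest transcript was 1079 bases in the 19 members that were higher with NuGEN, 2999 in the 3 that were lower, 1408 in the others and 3228 in all genes tested. With the trend of the values on length and GC content taken off each library, 12 members were higher and 3 lower. The shares of all genes called in that fit are not given here. Whether members were then called more often than genes at large therefore stays unknown. The 3 lower were then *Mrps22*, *Mrps24* and *Mrpl28*, while *Mrps14* and *Mrps30* were no longer called. Of the members that had been higher, *Mrpl36*, *Mrpl54*, *Mrps2*, *Mrps11*, *Mrps12*, *Mrps18b* and *Mrps34* were no longer called either. The medians of the large and the small subunit were then 0.03 apart instead of 0.27. Members and genes share libraries, so these are descriptions. The part of length and GC content in any single difference was not tested.

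The counts per exon of the 4 unsheared libraries showed where along the transcript the kits differed. Exons are numbered from the 5′ end, and a numbered exon may be divided into pieces that share reads. In the 66 members with at least 50 exon counts in each library, the first exon held a median of 28.8% and 27.6% of a member's exon counts in the NuGEN libraries (QIAGEN, PicoPure) against 7.83% and 9.82% in the Clontech libraries. For the last exon the shares were 17.1% and 17.4% against 32.1% and 27.3%. The kits differed in the same directions over 8390 genes. Their median shares were 13.8% and 12.8% against 2.97% and 3.40% for the first exon, and 17.7% and 18.3% against 22.3% and 23.3% for the last. The study itself reported a slight 5′ bias of its unsheared NuGEN libraries. It also described better coverage with NuGEN than with Clontech near both ends of the transcripts. The lower share of the last exon with NuGEN differs from that at the 3′ end. A share of exon counts is another measure than the study's coverage profiles, and the difference was not examined further. Both NuGEN libraries were above both Clontech libraries for the first exon in 43 of the 66 members, against 61.7% of 8390 genes, and below them in 3, against 3.80%. For the last exon both NuGEN libraries were below in 34 members, against 39.8% of genes, and above in 5, against 16.7%. Of 589 exon pieces of members tested, 110 were higher and 18 lower with NuGEN (limma over 131219 pieces, of which 13.3% were higher and 8.95% lower). Of 279 pieces before the middle exon 77 (27.6%) were higher and 5 (1.79%) lower, and of 267 after it 24 (8.99%) were higher and 9 (3.37%) lower. Over all genes the percentages were 18.8% and 6.89% before the middle exon and 8.32% and 10.9% after it.

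*Mrpl12* (chr11:120484613-120489065, + strand, GRCm38) has 5 exons. Its exon 2 had 715 and 395 normalized counts in the NuGEN libraries (QIAGEN, PicoPure) against 17.5 and 80.9 for Clontech, a log2 difference of 3.77 (SE 0.48, limma adjusted p = 1.0e-05). Exon 4 went the other way, with 18.4 and 20.7 against 129 and 64.8 (-2.17, SE 0.69, limma adjusted p = 0.028). The first exon held 55.3% and 52.4% of the gene's exon counts with NuGEN against 5.64% and 17.7%, and the last 1.99% and 3.31% against 40.0% and 20.1%. In *Mrps23* (chr11:88204388-88211507, + strand), exon 2 had 199 and 135 normalized counts against 1.87 and 23.4 (log2 difference 4.30, SE 0.86, limma adjusted p = 0.0014), while exon 4 had 93.5 and 51.8 against 31.2 and 30.1 and did not pass the test. In *Mrps36* (chr13:100735955-100744659, - strand), exon 4 had 150 and 81.6 normalized counts in the NuGEN libraries, was listed at 0 in the Clontech QIAGEN library and had 7.35 in the Clontech PicoPure library (limma adjusted p = 0.0078). Exons 2 and 3 of *Mrps36* were listed at 0 in both NuGEN libraries.

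The coding bases of these 4 exons are shown as examples of exons that differed between the kits, 2 of them in opposite directions within a gene. Neighboring exons could differ alike: exon 1 of *Mrpl12* had 669 and 376 normalized counts with NuGEN (QIAGEN, PicoPure) against 9.37 and 41.4 with Clontech. They come from GENCODE vM21 transcripts (GRCm38) and are written 5′ to 3′ in the sense of the mRNA. Capitals mark the coding part of the exon and lower case the 10 coding bases on each side of it after splicing. Their GC content was 58.3%, 55.8%, 54.4% and 42.2% in the order given, and its part in the contrast was not tested.
Mrpl12 exon 2 (chr11:120485243-120485429): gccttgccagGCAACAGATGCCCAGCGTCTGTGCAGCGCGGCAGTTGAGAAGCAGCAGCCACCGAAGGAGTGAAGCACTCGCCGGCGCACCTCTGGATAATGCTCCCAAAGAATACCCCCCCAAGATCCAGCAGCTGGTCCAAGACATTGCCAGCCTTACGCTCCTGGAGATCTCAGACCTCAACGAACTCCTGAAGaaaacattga
Mrpl12 exon 4 (chr11:120488097-120488234): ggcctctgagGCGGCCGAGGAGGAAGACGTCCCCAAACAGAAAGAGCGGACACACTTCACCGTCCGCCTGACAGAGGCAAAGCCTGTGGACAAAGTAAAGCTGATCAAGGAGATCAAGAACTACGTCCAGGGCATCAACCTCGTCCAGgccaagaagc
Mrps23 exon 2 (chr11:88205189-88205359): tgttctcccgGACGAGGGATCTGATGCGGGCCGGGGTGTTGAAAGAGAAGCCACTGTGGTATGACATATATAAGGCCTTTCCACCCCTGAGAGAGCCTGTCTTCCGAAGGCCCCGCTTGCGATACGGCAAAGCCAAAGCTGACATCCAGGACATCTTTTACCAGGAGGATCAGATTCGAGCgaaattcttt
Mrps36 exon 4 (chr13:100741168-100741231): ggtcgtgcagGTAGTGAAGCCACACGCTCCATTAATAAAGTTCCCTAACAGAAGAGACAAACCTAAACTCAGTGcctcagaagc

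The exon numbers of *Mrpl42* and *Mrps30* in the deposited table do not match GENCODE vM21 and are given as deposited. In *Mrpl42* exon 3 had 181 and 115 normalized counts in the NuGEN libraries and was listed at 0 in both Clontech libraries (limma adjusted p = 0.0012), while exon 5 had 146 and 168 against 26.9 and 41.4 (log2 difference 2.20, limma adjusted p = 0.0028). In *Mrps22*, which was lower with NuGEN as a whole, exon 1 had 65.9 and 32.4 with NuGEN against 18.7 and 22.7 and did not pass the test, and the highest piece of exon 2 in each library had 59.8 and 67.4 against 215 and 159. In *Mrps30* exon 1 had 41.4 and 47.9 against 5.62 and 21.4 and did not pass either, and exon 2 had 0 and 6.48 against 88.7 and 43.4 (-4.53, SE 1.47, limma adjusted p = 0.031).

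**Figure D4:**
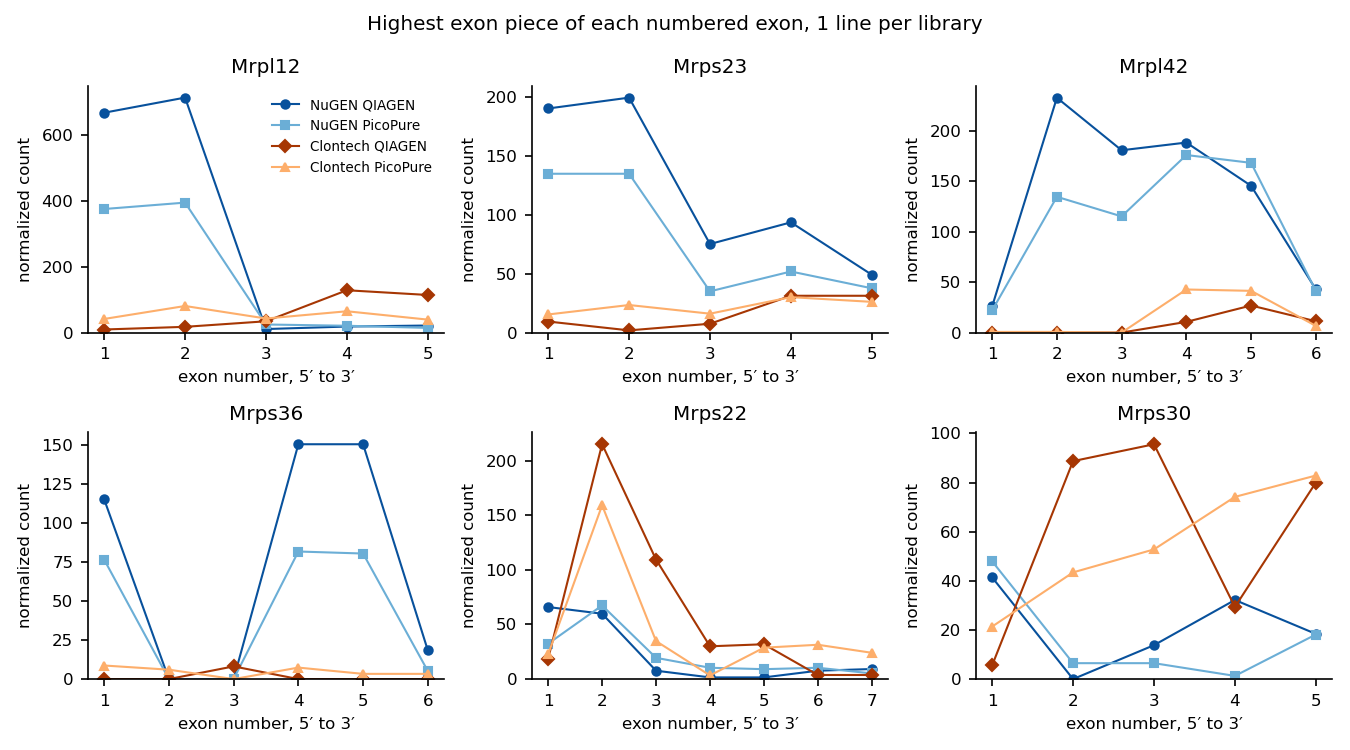
Normalized counts of the highest piece of each numbered exon, 5′ to 3′, in the 4 unsheared libraries for 6 members, 1 line per library. *Mrpl12* and *Mrps23* peak in exons 1 and 2 with NuGEN, *Mrps36* has almost no Clontech counts in any exon, and the Clontech lines of *Mrps22* and *Mrps30* exceed the NuGEN lines in exons 2 and 3.

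The comparison of RNA samples asks how the quality of the RNA affects a gene's measured level. With PicoPure RNA 0 of the 74 members were called higher and 0 lower by limma, edgeR or DESeq2, and 2 had an unadjusted limma p under 0.05, both lower. Of the 13044 genes tested, 1.45% were higher and 0.314% lower, and 1634 had an unadjusted limma p under 0.05. The direction was nonetheless uneven. The log2 difference, PicoPure minus QIAGEN, was negative in 60 of 74 members, 34 of the large and 26 of the small subunit, with a median of -0.30 (-0.40 for the large and -0.26 for the small subunit), whereas over all genes 47.8% were positive and the median was -0.03. In 40 members (54.1%) the value was lower with PicoPure RNA with both kits, against 30.8% of all genes, and in 3 it was higher with both, against 25.2%. Both PicoPure libraries were below both QIAGEN libraries in 19 members, 15 of the large and 4 of the small subunit, against 13.0% of genes, and above them in 0, against 13.1%.

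*Mrpl13*, a counterpart of bacterial L13, had 173 and 178 normalized counts with QIAGEN RNA (NuGEN, Clontech) and 64.6 and 91.3 with PicoPure RNA. The groups did not overlap and the log2 difference was -1.18 (SE 0.44), but the limma adjusted p was 0.22. *Mrpl44*, in which human mutations cause a cardiomyopathy of infancy, had 123 and 126 against 33.7 and 94.4 (-1.13, SE 0.54, limma adjusted p = 0.37). *Mrpl23*, whose product lies at the exit tunnel of the ribosome, had 105 and 59.8 against 57.6 and 24.8 (-1.04, SE 0.65), so that the NuGEN PicoPure value lay close to the Clontech QIAGEN value. On the other side, *Mrpl1* had 48.3 and 103 with QIAGEN RNA against 102 and 122 with PicoPure RNA (0.65, SE 0.51), *Mrpl9* had 112 and 52.7 against 107 and 93.7 (0.38, SE 0.52), and *Mrpl3* had 243 and 343 against 281 and 498 (0.37, SE 0.26). None of these passed the test.

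**Figure D5:**
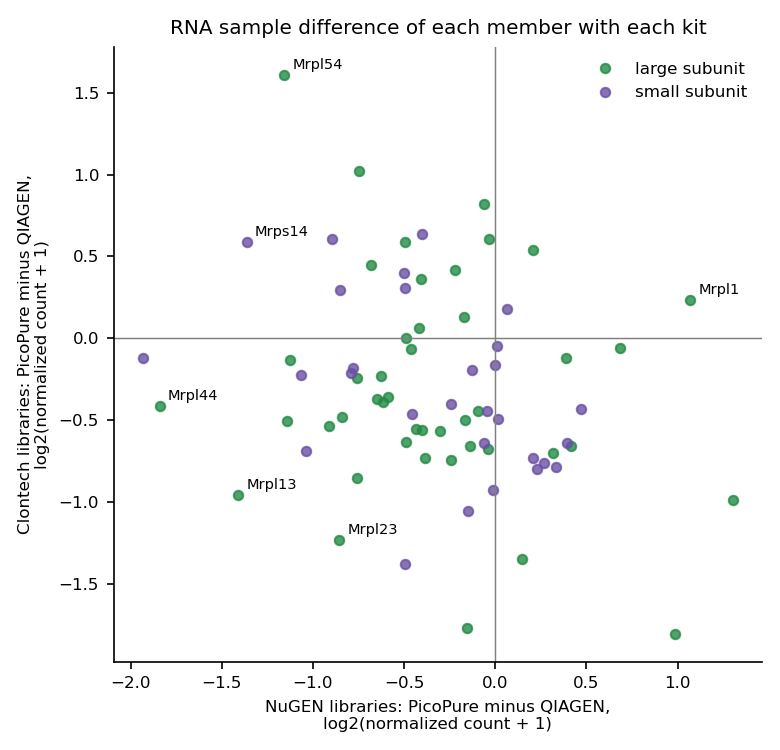
Difference between PicoPure and QIAGEN RNA in log2(normalized count + 1) of each member with NuGEN (horizontal axis) and with Clontech (vertical axis), 1 point per member. The lower left quadrant holds the 40 members that were lower with PicoPure RNA with both kits and the upper right quadrant the 3 that were higher with both.

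Markers of cell types and regions had differences between the RNA samples in both directions. All 10 oligodendrocyte markers had a negative difference, with a median of -0.72, and *Mbp*, the gene of myelin basic protein, was lower with PicoPure RNA (4078 and 1675 normalized counts with QIAGEN RNA, 2506 and 1050 with PicoPure RNA, limma adjusted p = 0.00100). Of the 8 CA1 markers 7 had a positive difference, with a median of 0.89. With the trend on length and GC content taken off, the members' median was -0.15. The part of cell composition, region and transcript length in the members' differences was not tested, and with 1 RNA sample of each kind, extraction kit, RNA quality and tissue piece cannot be told apart.

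In the sheared libraries the slope of a gene's level over the number of PCR cycles was fitted. Mouse and number of cycles changed together, so an effect of the cycles cannot be told apart from a difference between mice. By limma 0 of the 74 members had a slope that passed the test in either direction, 0 by edgeR and DESeq2, and 3 had an unadjusted limma p under 0.05. Of the 13639 genes tested, 0.0440% rose and 0.0733% fell with the number of cycles, and 620 had an unadjusted limma p under 0.05. The slopes were positive in 37 members and negative in 37, with a median of -0.0025 on the log2 scale per cycle (-0.011 for the large and 0.022 for the small subunit) against 0.00084 over all genes. The value was higher at each step in 11 members, against 15.7% of genes, and lower at each step in 15, against 16.5%.

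The steepest positive slope was that of *Mrps9*, with 1129, 1504 and 1733 normalized counts at 16, 18 and 20 cycles (0.15 per cycle, SE 0.058, limma adjusted p = 0.70). *Mrpl48* followed with 1607, 1728 and 2221 (0.12, SE 0.052), and *Mrpl57* had 567, 874 and 765, the highest being the middle library. The steepest negative slopes belonged to *Mrps5*, with 1423, 1225 and 982 normalized counts (-0.13, SE 0.062), *Mrpl13*, with 1291, 937 and 924 (-0.12, SE 0.066), and *Mrpl44*, with 572, 485 and 415 (-0.12, SE 0.094). *Mrpl12* had 3400, 3050 and 2799 normalized counts (-0.070, SE 0.042) and did not pass the test. With 1 residual degree of freedom, the spread in this fit came from other genes of like level. The CA1 markers summed to 6873, 4158 and 4078 normalized counts at 16, 18 and 20 cycles and the choroid plexus markers to 523, 3419 and 591, and the part of tissue composition in the slopes was not tested.

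Genes that work with the mitochondrial ribosome were counted from lists, with the 3 most abundant genes of each list and those that passed the test given by name. Of 6 subunits with other symbols, *Ptcd3*, which encodes a pentatricopeptide protein of the small subunit, was lower with NuGEN (183 and 92.7 against 259 and 327 normalized counts, log2 difference -1.15, limma adjusted p = 0.015). *Dap3*, *Chchd1* and *Aurkaip1* of the small and *Gadd45gip1* and *Ict1* of the large subunit did not pass, with differences of 0.17 to 0.56. Among 24 genes of ribosome assembly and rRNA maturation 0 rose and 1 fell, the helicase gene *Dhx30* (468 and 407 against 702 and 664, log2 difference -0.64), and the differences of the next most abundant, *Rbfa* and *Trub2*, were 0.34 and 0.59. Among 17 translation factors 2 rose, *Taco1*, a translational activator of cytochrome c oxidase subunit I (891 and 868 against 258 and 282, log2 difference 1.70, limma adjusted p = 1.1e-07), and *Gatc*, a subunit of the glutaminyl-tRNA amidotransferase (1.44). *Gfm1* and *Tufm*, for elongation factors, had differences of -0.41 and 0.90 and did not pass. Among 17 aminoacyl-tRNA synthetases 1 rose, *Lars2*, for leucine (1.45), while *Fars2* and *Iars2*, for phenylalanine and isoleucine, had -0.22 and -0.46 and did not pass. The median differences of these 4 lists were 0.20, -0.24, -0.11 and 0.20, in the order given.

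Among 24 genes of mitochondrial transcription and RNA stability 1 rose, *Hsd17b10*, a subunit of mitochondrial RNase P (1.76), and 3 fell. *Lrpprc*, which stabilizes mitochondrial mRNAs, had 292 and 219 normalized counts against 833 and 684 (-1.58, limma adjusted p = 1.2e-06). *Tfam*, the packaging and transcription factor of mitochondrial DNA, had 65.0 and 82.8 against 278 and 148 (-1.46), and the helicase gene *Supv3l1* had 53.3 and 73.0 against 194 and 169 (-1.52). *Ppargc1a*, a transcriptional coactivator, and *Elac2*, a tRNA processing enzyme, had -0.24 and 0.0041 and did not pass, and the median of this list was -0.28. Of 82 cytosolic ribosomal protein genes, in comparison, 37 were higher and 6 lower with NuGEN, with a median log2 difference of 0.74, and for oxidative phosphorylation 49 of 76 nuclear genes rose and 2 fell, with a median of 1.37. With PicoPure RNA 0 of the genes in the 5 lists of mitochondrial translation were called in either direction, and medians were -0.49 for the cytosolic ribosomal proteins, of which 1 was called lower, and -0.32 for oxidative phosphorylation, of which 2 were called lower. In the sheared libraries 0 genes of these 7 lists passed the test.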

How the data were processed

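The data are RNA-Seq values of 7 libraries, each described above, in 3 tables that the authors deposited: counts per gene for the unsheared and for the sheared libraries and counts per exon piece for the unsheared ones. The authors aligned stranded paired reads with STAR 2.4.1d to mm10 and counted them with featureCounts. The deposited signal values are normalized counts, reads over the size factor that DESeq2 gave each library. All values above 0 (100%) were whole multiples of 1 read's value within 0.01 read, which gave back the reads. The methods name a GENCODE release for the counting and a later one for a comparison with outside CA2 data, and do not say which of them the sheared table rests on. Exon pieces share reads, since 1 read can count in several.

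The main test was limma 3.58.1 (lmFit, eBayes with trend; R 4.3.3) on log2(normalized count + 1) over genes reaching 10 normalized counts in 2 or more libraries, ribosomal RNA and mitochondrially encoded genes left out by symbol, with Benjamini-Hochberg adjustment over all genes tested. The kit and RNA sample were additive terms, and PCR cycles entered as a linear term, so each fit has 1 residual degree of freedom. Fold changes are on the log2(normalized count + 1) scale, which understates changes of low genes. Standard errors (SE) are moderated. No group has replicates, and no standard deviation is given. The fits were tried on simulated counts that had the same dispersion in every gene and no interaction of kit and RNA sample. That trial therefore cannot show how often calls in these libraries are wrong. Alternatives were edgeR 4.0.16 and DESeq2 1.42.0 on the recovered reads, TMM scaling, other pseudocounts and filters, a loess correction for length and GC content, listed exons only, the other term left out, and each library left out. The test of exon pieces and the use of the highest piece of each exon were added after the data were seen.

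The members and gene lists were chosen with earlier results of these data known. Members named are all those called, in each direction where fewer than 3 passed the 3 with the largest differences, the 4 highest and 2 lowest per kb of each subunit in the sheared libraries, and *Mrps18a*, *Mrps18b*, *Mrps18c*, *Mrps30*, *Mrps36* and *Mrpl12*. Of the lists, all subunits with other symbols and the 3 most abundant genes are named. The rule had asked for the 6 largest called members with a mean of at least 50 normalized counts in each direction. The other called members, the called genes of the lists, *Mrps24* and the exons described were added after their values were seen. Of 74 members 55 have as many numbered exons as merged exons in GENCODE vM21, whose GRCm38 coordinates, lengths and GC content were used. Computation and figures used Python 3.11.15, numpy 2.4.6, pandas 2.3.3, scipy 1.17.1 and matplotlib 3.10.9.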

Additional observations from a re-analysis of the deposited data

Results flagged for a closer look

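For *Mrpl54* the difference between PicoPure and QIAGEN RNA was -1.16 (log2) with NuGEN and 1.61 with Clontech, and for *Mrps14* it was -1.36 with NuGEN and 0.59 with Clontech. These are the members named above whose RNA difference went in opposite directions with the kits by at least 0.5 on the log2 scale each. Members not named above did so as well: *Mrpl40* (0.99 with NuGEN, -1.81 with Clontech), *Mrpl39* (1.30, -0.99), *Mrpl55* (-0.75, 1.02) and *Mrps31* (-0.90, 0.61). With 1 library per combination this difference between the kits was not tested.

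The pseudogenes *Mrpl23-ps1* and *Mrpl48-ps*, which lie outside the members, reached 22 reads in the NuGEN PicoPure library and 6 reads in the Clontech QIAGEN library, above the 3 reads that a count of 0 allows. *Mrpl2*, *Mrpl33* and *Mrpl53*, which are members by symbol but occur in the sheared table alone, had means of 832, 710 and 847 normalized counts there and did not pass the test of the slope.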

How the results depend on the processing

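The RNA sample, a term of the kit fit, pairs the libraries made from the same RNA. By replicate number, no paired analysis was possible because each group has 1 library. In the kit comparison 19 members were higher and 3 lower. Those numbers were 15 and 1 with DESeq2, 19 and 1 with TMM scaling in limma and 11 and 0 without the RNA term. They were 12 and 3 with the length and GC trend removed and 19 and 5 with a mean of at least 50. Shares of all genes called are given for the main fit only, so these counts cannot be set against genes at large. With the trend removed, the calls of *Mrpl36*, *Mrpl54*, *Mrps2*, *Mrps11*, *Mrps12*, *Mrps14*, *Mrps18b*, *Mrps30* and *Mrps34* were lost, and those of *Mrpl28* and *Mrps24* were gained. The members' median kit difference of 0.28 was 0.52 in listed exons and 0.14 to 0.57 with 1 library left out. The large minus small subunit median (-0.27) was -0.034 with the length and GC trend removed, -0.29 to -0.11 with 1 library left out, and -0.42 with *Mrps18a* and *Mrps30* counted as large and *Mrps36* left out. The members' median RNA difference of -0.30 was -0.15 with the length and GC trend removed and -0.64 to -0.046 with 1 library left out, and its large minus small subunit median was -0.11 to 0.037 with 1 library left out. For the cycle slope that last difference was -0.066 to -0.033. The cause of these shifts was not tested. Calls of members in the RNA and cycle comparisons stayed at 0 under every setting run.

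The share of reads fell to 0.181, 0.152, 0.150 and 0.126% (NuGEN QIAGEN, NuGEN PicoPure, Clontech QIAGEN, Clontech PicoPure) and 0.227, 0.221 and 0.222% (16, 18, 20 cycles) when ribosomal RNA and mitochondrial genes stayed in the total, by construction. The large to small subunit level was 0.89, 0.87 and 1.15 with the longest transcript in the NuGEN QIAGEN, NuGEN PicoPure and Clontech PicoPure libraries and 1.01 and 0.92 at 16 and 18 cycles. As sums over members it was 1.61, 1.35, 1.51 and 1.59 (unsheared, same order) and 1.81, 1.71 and 1.68 (sheared), the large subunit having more members. With at least 200 exon counts, 23 members remained and the first exon held 9.97 and 13.9% with Clontech (QIAGEN, PicoPure). Sampling of the shallower NuGEN libraries and 1 residual degree of freedom limit the smallest change that could be called.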
